A study of Mus musculus with 12 samples.

Results

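The fatty acid synthesis genes are the 10 genes Srebf1, Mlxipl, Acly, Acaca, Acacb, Fasn, Thrsp, Scd1, Elovl6 and Me1, out of 55335 genes in the count table. They were chosen by symbol, with earlier results of these data known, and each symbol stood on 1 row. The mRNA sequencing covered 12 mouse libraries in 4 groups of 3. Bone marrow-derived macrophages (BMDMs) came from Tshr f/f mice or from Tshr MKO littermates, male and 6 weeks old, and were grown for 7 days with M-CSF at 10 ng/mL. Every BMDM culture, of both genotypes, then received thyrotropin (TSH) at 1 ng/mL for 24 h, so no culture without TSH was compared. The livers came from male Tshr f/f and Tshr MKO mice that started a high-fat diet (HFD) at 6 weeks of age and ate it for 9 weeks, fasted for 8 h and received insulin at 1.5 U/kg for 5 min before death. Tshr MKO mice lack the TSH receptor in myeloid cells, through a Cre driven by Lyz2, so their hepatocytes keep the gene, and a liver library is mostly hepatocyte RNA.

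Fatty acid synthesis turns surplus carbohydrate into fat in the cytosol. ATP citrate lyase (Acly) makes acetyl-CoA from citrate, acetyl-CoA carboxylase (Acaca, Acacb) turns it into malonyl-CoA, and fatty acid synthase (Fasn) joins these units into palmitate with NADPH that malic enzyme (Me1) helps to supply. Elovl6 then lengthens the chain and Scd1 puts in a double bond. The transcription factors SREBP1 (from Srebf1), driven by insulin, and ChREBP (from Mlxipl), driven by sugars, switch these genes on together in liver, where the pathway feeds the triglyceride of fatty liver. Macrophages can use the same pathway, among other things to build membranes.

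Promoter sequence shows what the members share at the DNA level and where they part. RefSeq windows on GRCm38.p6, from 250 bases before to 50 bases after a start, were held for 9 of the 10 members. There were 13 windows, with more than 1 for Me1, Mlxipl and Srebf1. The single windows of Acaca and Acacb lie inside the genes as GENCODE M21 places them. Their starts are at 84195438 against a gene start of 84129672 for Acaca, and at 114165518 against 114146535 for Acacb. The bases before the start are printed for both transcription factor genes, for Acly, which was not higher in liver, for Fasn and for Thrsp, whose level varied most between livers. For Srebf1 and Mlxipl the window richest in CpG is shown. Capitals mark matches on either strand to an E-box (CACGTG), a sterol response element (TCACNCCAC), a CCAAT box (CCAAT) or a GC box (GGGCGG).
Srebf1, chr11:60210472-60210721, minus strand: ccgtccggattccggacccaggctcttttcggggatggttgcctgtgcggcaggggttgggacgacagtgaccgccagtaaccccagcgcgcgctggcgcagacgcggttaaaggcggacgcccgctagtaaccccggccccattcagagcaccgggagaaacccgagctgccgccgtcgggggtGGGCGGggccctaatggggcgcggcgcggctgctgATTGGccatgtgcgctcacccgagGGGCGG
Mlxipl, chr5:135089640-135089889, plus strand: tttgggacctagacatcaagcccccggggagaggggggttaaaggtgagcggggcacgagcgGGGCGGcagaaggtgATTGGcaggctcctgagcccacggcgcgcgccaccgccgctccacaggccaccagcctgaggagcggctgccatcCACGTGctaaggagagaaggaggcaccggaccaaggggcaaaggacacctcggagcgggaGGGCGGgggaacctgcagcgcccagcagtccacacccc
Acly, chr11:100528001-100528250, minus strand: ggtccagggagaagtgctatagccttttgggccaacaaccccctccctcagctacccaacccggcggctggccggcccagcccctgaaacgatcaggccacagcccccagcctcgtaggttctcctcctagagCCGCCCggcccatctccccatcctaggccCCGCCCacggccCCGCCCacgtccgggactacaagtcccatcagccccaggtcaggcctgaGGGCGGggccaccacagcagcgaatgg
Fasn, chr11:120824548-120824797, minus strand: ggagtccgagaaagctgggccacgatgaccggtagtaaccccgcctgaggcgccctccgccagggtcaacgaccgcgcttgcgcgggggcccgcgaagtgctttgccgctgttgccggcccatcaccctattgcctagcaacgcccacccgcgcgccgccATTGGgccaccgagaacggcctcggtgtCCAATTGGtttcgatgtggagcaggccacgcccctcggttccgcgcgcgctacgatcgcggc
Thrsp, chr7:97417551-97417800, minus strand: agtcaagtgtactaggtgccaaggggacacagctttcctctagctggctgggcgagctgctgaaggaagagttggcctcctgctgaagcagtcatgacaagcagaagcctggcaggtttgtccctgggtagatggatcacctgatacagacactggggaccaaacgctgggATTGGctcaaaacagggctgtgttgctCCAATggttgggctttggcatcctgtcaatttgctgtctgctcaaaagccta

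The CCAAT box was the motif most members held. It was present in 8 of the 13 members' windows and in 37.4% of 32851 windows of the same 300 base length in the table. Fasn held 3 of these boxes, with first bases 90, 62 and 59 bases before the start, and the 2 nearest shared letters on opposite strands. Thrsp held 2, at 79 and 52 bases before the start. The GC box was present in 5 of the 13 windows against 35.7% of all windows, with 4 in Acly and none in Fasn or Thrsp. An E-box was present in 1 of the 13 windows, that of Mlxipl 98 bases before its start, against 7.15% of all windows. A sterol response element in the letters given above was present in 1, the other Mlxipl window, against 1.24% of all. Only those letters were searched for each motif, so sites that vary from them are not counted. CpG pairs ranged from 1 in the Acaca window, which lies inside the gene, and 4 in that of Thrsp to 39 in that of Fasn. The median over all windows was 7.

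**Figure D1:**
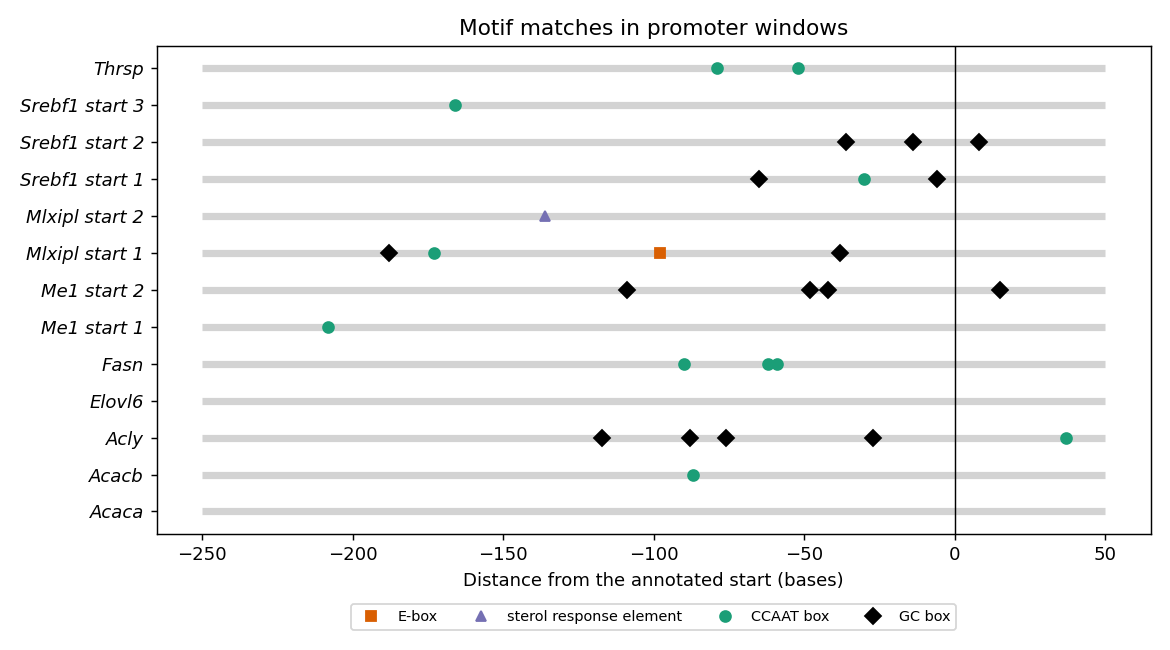
Positions of 4 motifs (symbols) in the 13 promoter windows of 9 members, with distance from the annotated start in bases on the x axis and windows of the same gene numbered by coordinate. Matches in Acly and the second Me1 window are GC boxes for the most part, and those in Fasn and Thrsp are CCAAT boxes.

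Library totals ran from 33683981 to 40954211 counts in BMDMs and from 28962878 to 40420513 in livers, and the 10 members took 0.0261 to 0.0479% of the BMDM counts and 0.389 to 1.27% of the liver counts. Levels are given as CPM, the count relative to the library total after scaling within each tissue by TMM factors, and p-values come from edgeR's quasi-likelihood test with Benjamini-Hochberg adjustment over all genes tested. The p-values measure the spread between these libraries, and the labels do not say whether each came from its own animal. BMDM f/f replicate 3 stood apart, with a TMM factor of 0.738 against 0.993 to 1.11 in the other BMDM libraries. Of the 9 members with counts in BMDMs, 7 had their lowest BMDM level there, and the share over all genes was not counted. Macrophage markers summed to 15018 to 17584 CPM in f/f BMDMs and 20254 to 29972 CPM in MKO BMDMs, where hepatocyte markers summed to 0.0783 CPM at most, against 81503 to 105739 CPM in livers. Tshr had 0, 0 and 2 counts in f/f BMDMs, 0, 0 and 5 in MKO BMDMs and 0 in every liver library, so the genotype could not be checked from its level. The floxed stretch runs from exon 10 to the stop codon, so counts over the whole gene need not fall. In a receptor table of the study's supplement the liver counts stand under the opposite genotype heading from the labels, for 72 of 72 values over 12 genes. Directions here follow the labels.

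Livers held far more of this pathway's RNA than BMDMs. Of the 10 members, 8 were higher in f/f livers than in f/f BMDMs at an adjusted p under 0.05 and 0 were lower, where 36.6% of the 17246 genes tested were higher and 32.7% were lower. The median log2 fold change was 3.41 over the members, also with Thrsp at its bound, and 0.03 over all genes tested. Tissue cannot be told apart from culture, TSH, diet, fasting and insulin here. In bulk samples fewer cells of a type and less RNA per cell cannot be told apart either. For this comparison all 12 libraries were scaled together, which moves levels, and means below are on that scale.

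**Figure D2:**
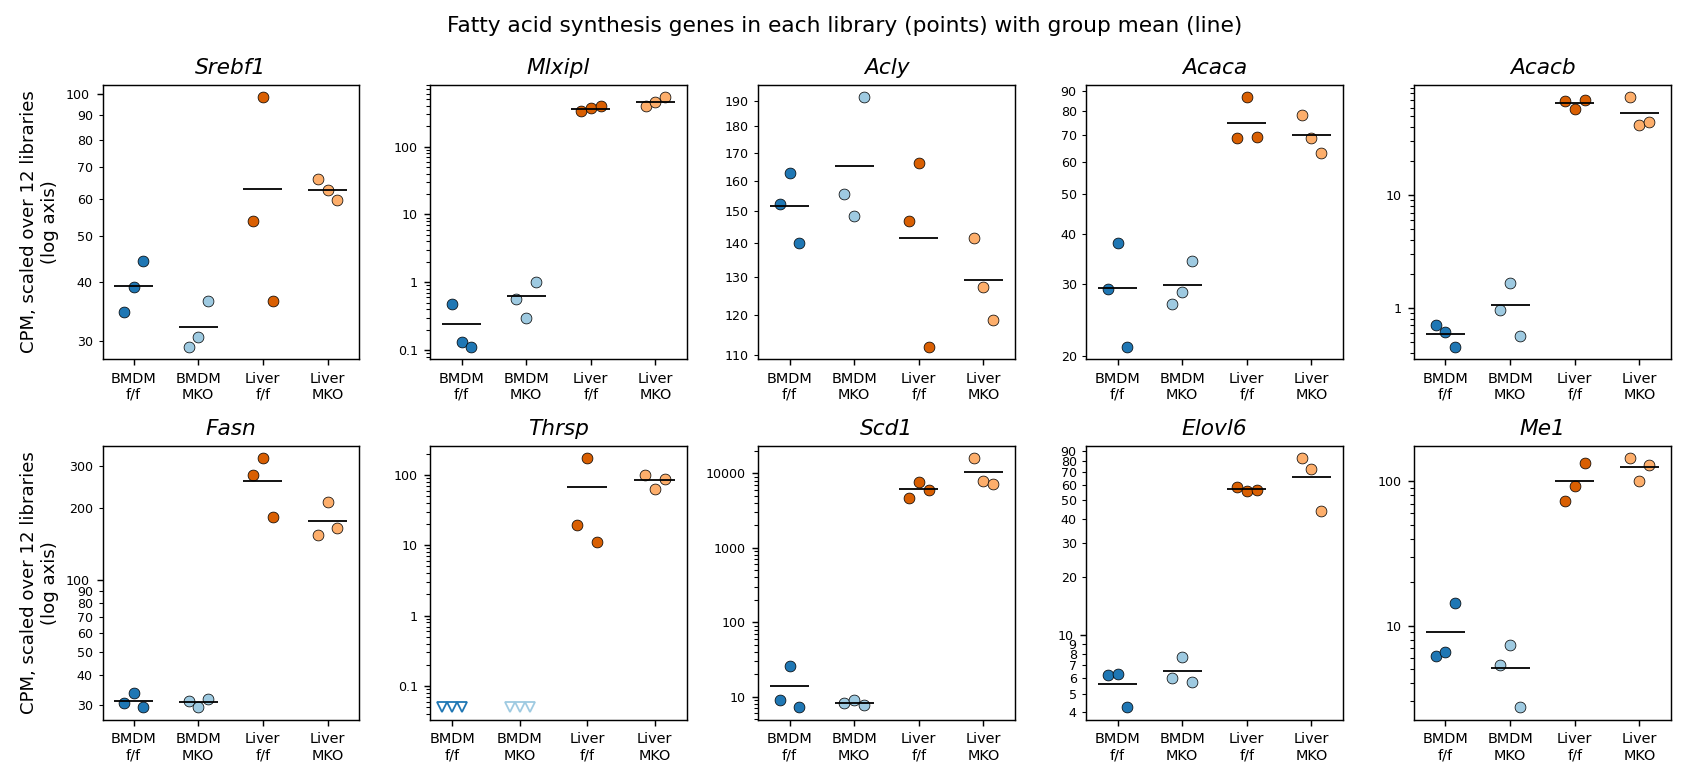
Level of each member in each library (points, CPM scaled over all 12 libraries, log axis) with the mean of each group of 3 (line); open triangles mark libraries with no Thrsp count, drawn at the smallest 3-count floor of 0.0498 CPM. Of the members with counts in both tissues Scd1 and Mlxipl differ most between them, Acly overlaps, and in livers the f/f and MKO points overlap for every member but Mlxipl, whose nearest points on this scale are 392 CPM (f/f) and 395 CPM (MKO).

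The regulators parted company. Mlxipl was at 0.243 ± 0.207 CPM (SD, n = 3) in f/f BMDMs and 363 ± 30.1 CPM in f/f livers, a log2 difference of 10.48 (SE 0.63, edgeR adjusted p = 1.79e-07). Srebf1 was at 39.2 ± 4.85 CPM and 62.8 ± 32.0 CPM, a log2 difference of 0.68 (95% interval 0.05 to 1.32, edgeR adjusted p = 0.0544). So ChREBP's gene was all but silent in macrophages while SREBP1's was not, and the f/f livers' Srebf1 levels overlapped those of the f/f BMDMs. Without liver f/f replicate 3, Srebf1 passed the test, with a log2 difference of 0.95 (edgeR adjusted p = 0.00492). The counts cover all Srebf1 transcripts, so the forms SREBP-1a and SREBP-1c were not separated.

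Among the enzymes the tissue difference was smallest for Acly, at the start of the pathway, and largest for Scd1, near its end. Acly was at 152 ± 11.3 CPM in f/f BMDMs and 142 ± 27.5 CPM in f/f livers, a log2 difference of -0.10 (95% interval -0.46 to 0.27, edgeR adjusted p = 0.615). Acaca, the cytosolic carboxylase, was 2.54-fold higher in liver (log2 1.35, SE 0.20, edgeR adjusted p = 0.000163), and Fasn was 8.34-fold higher (log2 3.06, SE 0.21, edgeR adjusted p = 5.10e-07). Elovl6 was 10.1-fold and Me1 11.2-fold higher, both past the test. Scd1, which makes oleate from stearate, was at 14.0 ± 10.1 CPM in f/f BMDMs and 6172 ± 1504 CPM in f/f livers, a 439-fold difference (log2 8.78, SE 0.65, edgeR adjusted p = 7.78e-07). Scd1 alone took 81.2 to 92.8% of the members' counts in livers and 2.46 to 8.23% in BMDMs. Its near copies Scd2, Scd3 and Scd4 stood at no more than 7.80 CPM in any liver library, and how reads shared between copies were counted is not given in the sources used here.

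The balance of the carboxylases differed between the tissues. Acacb, whose product sits at the mitochondrion and restrains fatty acid oxidation, was at 0.590 ± 0.127 CPM in f/f BMDMs and 65.6 ± 6.82 CPM in f/f livers, a 109-fold difference (log2 6.77, SE 0.42, edgeR adjusted p = 2.43e-07). Per kb of exon, Acacb made up 2.79 to 9.28% of Acaca and Acacb together in the 6 BMDM libraries and 52.2 to 64.3% in the 6 livers. Thrsp, a small protein that promotes lipogenesis in liver and responds to thyroid hormone and carbohydrate, had 0 counts in all 6 BMDM libraries and 246 to 4602 counts in livers. Its f/f liver mean was at least 1070-fold higher than a floor of 3 counts per BMDM library, and the lowest liver at least 131-fold higher.

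**Figure D3:**
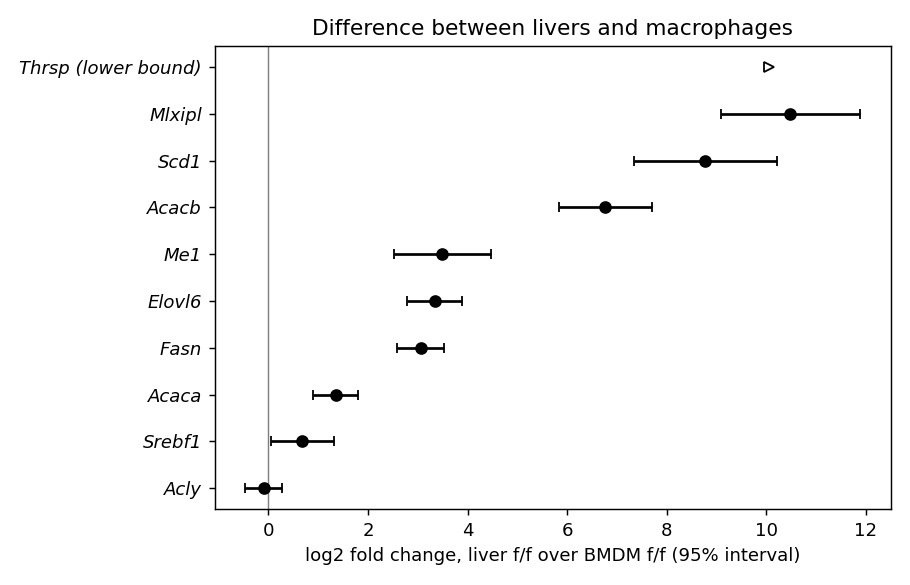
Log2 fold change of f/f livers over f/f BMDMs for each member (x axis; points, with 95% intervals from the edgeR fit); the open arrow is the lower bound for Thrsp. The interval of Acly includes 0, and that of Srebf1 starts at 0.05.

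Without BMDM f/f replicate 2 the log2 difference of Scd1 was 9.55, and without BMDM f/f replicate 1 that of Mlxipl was 11.46.

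The scaling mattered for the 3 smallest differences between tissues. With library totals alone in place of TMM factors, the median log2 fold change of all genes between tissues moved from 0.03 to -0.79. Under that scaling Acly was lower in liver by log2 -0.94 (edgeR adjusted p = 0.00247), Acaca was at 0.48 (edgeR adjusted p = 0.163) and Srebf1 was at -0.11. The log2 difference of Scd1 was then 7.86, that of Fasn 2.22 and that of Mlxipl 9.66.

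Within a tissue, levels can be ranked per kb of exon. In BMDMs Acly led at 40.8 CPM per kb over 6 libraries (36.0 to 48.7), followed by Srebf1 at 8.59 (7.03 to 10.7). Fasn at 3.84, Scd1 at 3.12, Me1 at 2.49 and Acaca at 2.37 CPM per kb came next and overlapped in range with a neighbour in that order. Elovl6 stood at 1.28, and Acacb at 0.117 and Mlxipl at 0.106 overlapped near the bottom, above Thrsp with no counts. In livers Scd1 led at 1241 CPM per kb (724 to 2377), well clear of Mlxipl at 54.8 (44.8 to 72.1). Thrsp at 25.4, Me1 at 21.6, Acly at 18.9 and Fasn at 14.7 CPM per kb overlapped in range with their neighbours. Srebf1 at 8.19, Elovl6 at 7.01, Acacb at 4.55 and Acaca at 3.12 CPM per kb closed the order, the last with a range of 2.78 to 3.72 against 3.17 to 5.57 for Acacb.

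The second question was whether loss of Tshr in myeloid cells moved these genes in macrophages. In BMDMs 0 of the 9 members tested passed an adjusted p under 0.05 in edgeR, as did 0% of the 15372 genes tested. At an unadjusted p under 0.05 the count was 0 of 9 against 17.9% of all genes, and for 0 of 9 did the 3 values of a genotype all lie above the 3 of the other, against 28.7% of all genes. DESeq2 called 0 members as well and 1216 of all genes. The median log2 fold change, MKO over f/f, was 0.01 for the members and 0.01 for all genes, with 5 members above 0.

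Fasn had the narrowest interval of the members in BMDMs. Fasn was at 41.4, 46.1 and 39.9 CPM in f/f replicates 1, 2 and 3 and at 42.3, 39.9 and 42.5 CPM in MKO replicates 1, 2 and 3. All 6 values lay within 7 CPM of each other, and the log2 fold change was -0.03 (95% interval -0.29 to 0.23, edgeR adjusted p = 0.884). Acly was at 206, 224 and 190 CPM in f/f and 211, 202 and 257 CPM in MKO cultures, with a log2 fold change of 0.11 (95% interval -0.28 to 0.50). Acaca was at 39.7, 52.3 and 28.6 CPM in f/f and 36.5, 39.3 and 46.0 CPM in MKO cultures, with the f/f values on either side of the MKO values (0.01, 95% interval -0.55 to 0.57).

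Srebf1 came nearest to a separation in BMDMs. It was at 46.8, 53.6 and 60.02 CPM in f/f and 39.6, 41.6 and 48.8 CPM in MKO cultures. MKO replicate 3 overlapped f/f replicate 1, and the log2 fold change was -0.30 (SE 0.14, edgeR unadjusted p = 0.0773, adjusted p = 0.318). Genes that control the SREBP and ChREBP programme and acetyl-CoA carboxylase were read from a list of 21 regulators. At an unadjusted p under 0.05, 3 of them were higher in MKO BMDMs and 2 lower, where 17.9% of all genes passed in either direction. The lowest p was that of Rxra, a partner of the liver X receptors that act on Srebf1, at log2 0.83 over f/f (SE 0.17, edgeR adjusted p = 0.218). Mlx, the partner of ChREBP, was at log2 -0.56 over f/f (SE 0.14, edgeR adjusted p = 0.218).

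For the desaturase and for malic enzyme an f/f culture each stood above the rest. Scd1 was at 12.4, 35.4 and 9.79 CPM in f/f and 11.4, 12.3 and 10.3 CPM in MKO BMDMs. Replicate 2 of f/f stood above the other 5, and the log2 fold change, -0.77 with all cultures (SE 0.49, edgeR adjusted p = 0.423), was 0.02 without it. In the same culture Scd2, a near copy, was at 113 CPM against 17.9 to 48.7 CPM in the others, and 6 stellate cell and fibroblast markers summed to 1802 CPM against 397 to 776 CPM. Their part in the Scd1 value was not tested, and Scd2 was chosen after its values were seen. Me1 was at 8.36, 8.98 and 19.4 CPM in f/f and 7.21, 9.98 and 3.64 CPM in MKO BMDMs. Here f/f replicate 3, the culture that stood apart, lay above the rest, and MKO replicate 3 lay below. The log2 fold change of Me1 was -0.81 (SE 0.48, edgeR adjusted p = 0.396). It ran from -1.17 to -0.31 when a library was left out, so its direction did not turn on 1 culture.

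The other members were low in BMDMs. Elovl6 was at 8.44, 8.73 and 5.76 CPM in f/f and 8.23, 10.6 and 7.66 CPM in MKO cultures (log2 fold change 0.20, SE 0.24). Acacb was at 0.954, 0.847 and 0.614 CPM in f/f and 1.31, 2.27 and 0.747 CPM in MKO cultures (0.83, SE 0.47), and Mlxipl was at 0.653, 0.183 and 0.154 CPM in f/f and 0.783, 0.400 and 1.35 CPM in MKO cultures (1.33, SE 0.73). For all 3 genes the genotypes overlapped. The 95% interval was -0.36 to 0.77 for Elovl6, -0.32 to 1.97 for Acacb and -0.42 to 3.08 for Mlxipl. The Mlxipl value ran from 0.81 without MKO replicate 3 to 2.31 without f/f replicate 1.

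**Figure D4:**
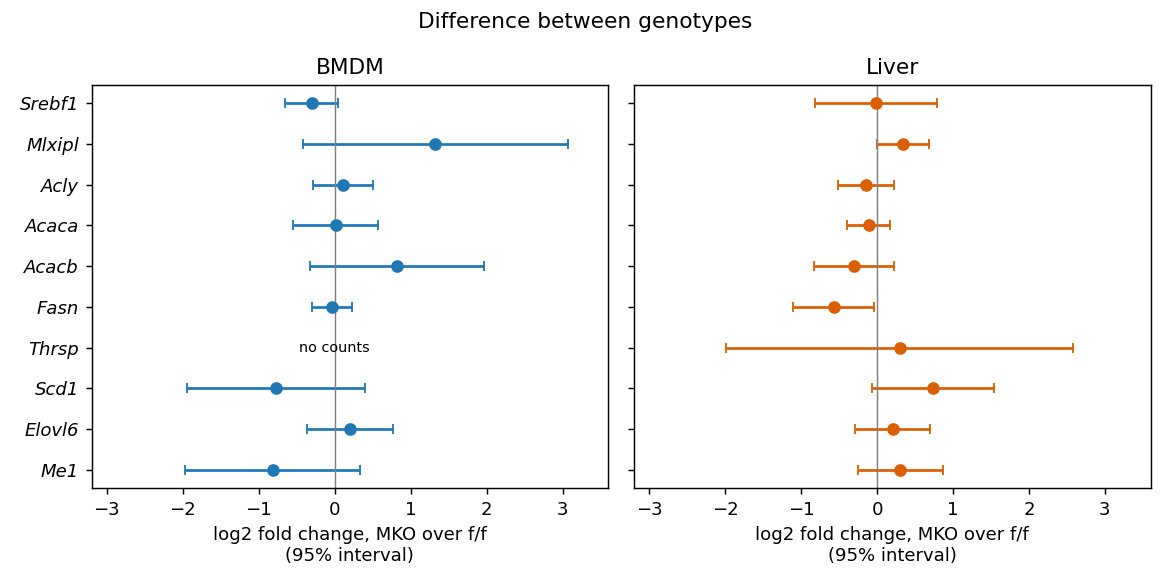
Log2 fold change of MKO over f/f for each member in BMDMs and in livers (points, with 95% intervals from the edgeR fit within each tissue, 3 libraries per genotype). Fasn in livers is the only member whose interval leaves out 0, from -1.10 to -0.04, and Thrsp in livers has the widest, from -1.99 to 2.58.

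In livers of HFD-fed mice the question was whether myeloid Tshr loss moved the hepatic pathway. In edgeR 0 of the 10 members passed an adjusted p under 0.05, as did 0% of the 15062 genes tested. At an unadjusted p under 0.05 the count was 1 of 10, Fasn, against 10.5% of all genes, and for 0 of 10 did the values of the genotypes lie fully apart, against 17.3% of all genes. No member met the study's own rule of an unadjusted p under 0.05 with a 2-fold change, here applied to the edgeR test. DESeq2 called 0 members and 266 of all genes. The median log2 fold change was 0.09 over the members and -0.01 over all genes, with 5 members above 0 and 5 below.

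Fasn and Scd1 lay on opposite sides of 0. Fasn was at 206, 237 and 134 CPM in f/f livers and 112, 153 and 124 CPM in MKO livers. Only MKO replicate 2 reached above the lowest f/f liver, and the log2 fold change was -0.57 (SE 0.22, edgeR unadjusted p = 0.0394, adjusted p = 0.447). Without f/f replicate 1 the unadjusted p was 0.0823, without f/f replicate 2 it was 0.117, without MKO replicate 1 it was 0.123, and without MKO replicate 3 it was 0.0995. With library totals alone it was 0.0532, and with the ID letter of each liver in the fit it was 0.128. At an unadjusted p under 0.05, 1 member was lower under DESeq2, RLE or upper-quartile scaling, either other filter, and the replicate block. The same count held with symbol rows summed and in the fit of all 12 libraries. It was 2 without f/f replicate 3 and 1 without MKO replicate 2. These counts do not name the member. The log2 fold change of Fasn ran from -0.78 to -0.39 when a library was left out. Scd1 was at 3541, 5671 and 4452 CPM in f/f and 11629, 5708 and 5410 CPM in MKO livers. MKO replicate 1 stood above the other 5 livers, and the log2 fold change, 0.74 with all livers (SE 0.34, edgeR adjusted p = 0.501), was 0.28 without it.

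The transcription factors also differed in pattern. Mlxipl was at 248, 268 and 288 CPM in f/f and 287, 330 and 400 CPM in MKO livers. MKO replicate 1 lay just under f/f replicate 3 when scaled within livers, and just above it, at 395 against 392 CPM, when scaled over all 12 libraries. In the fit within livers its log2 fold change was 0.34 (SE 0.14, edgeR unadjusted p = 0.0519, adjusted p = 0.485). Srebf1 was at 40.3, 72.1 and 26.7 CPM in f/f and 47.9, 45.0 and 44.7 CPM in MKO livers, so the f/f livers lay on both sides of a tight MKO group. Its log2 fold change was -0.02 (95% interval -0.81 to 0.78), and 0.45 without f/f replicate 2 (edgeR unadjusted p = 0.0388, adjusted p = 0.324).

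Thrsp varied more between livers than any other member. It was at 14.6, 127 and 8.16 CPM in f/f and 72.9, 44.9 and 66.4 CPM in MKO livers, a 15.5-fold range. The f/f values lay above and below every MKO value, and the log2 fold change was 0.30 (SE 0.95, edgeR adjusted p = 0.949). Without f/f replicate 2 it was 2.43 (edgeR unadjusted p = 0.000301, adjusted p = 0.0902), and DESeq2 gave no p for Thrsp. In f/f livers Thrsp, Srebf1, Fasn, Acly and Acaca, 5 of the 10 members, shared the order replicate 2, replicate 1, replicate 3 from high to low. How many of all genes had that order was not counted, so it is not shown to be a trait of the members. The clock output genes Dbp, at 19.9, 44.6 and 8.16 CPM, and Ciart, at 15.8, 48.9 and 7.27 CPM, had that order in f/f livers too. In MKO livers Dbp was at 48.5, 42.3 and 55.7 CPM and Ciart at 13.6, 14.3 and 25.3 CPM. Both genes were chosen after their values were seen, and the part of sampling time in the members' levels was not tested.

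**Figure D5:**
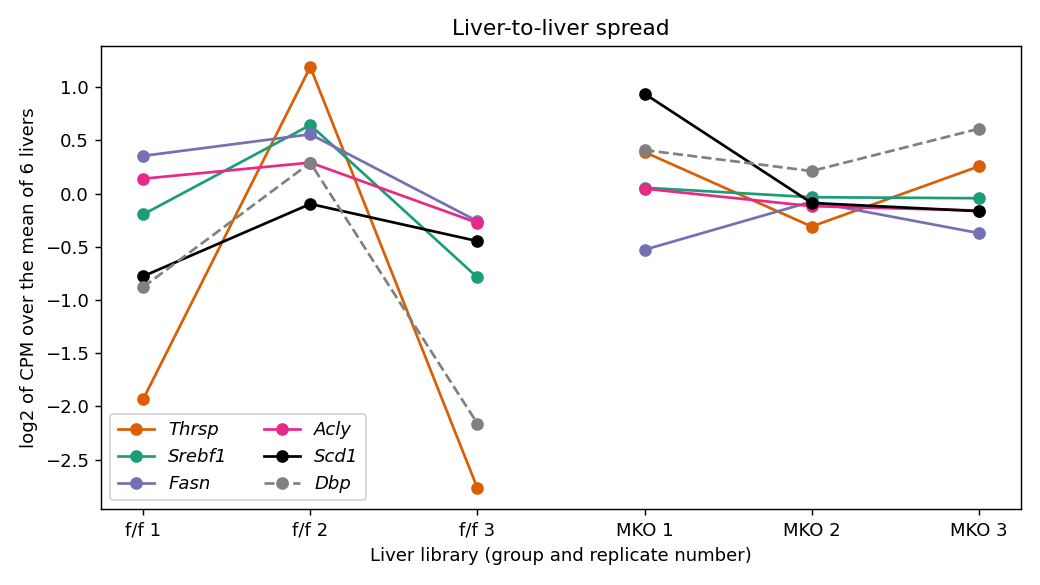
Level of 5 members and of the clock output gene Dbp (dashed) in each liver, as log2 of CPM over the mean of the 6 livers, with lines joining libraries of a genotype only to guide the eye. Thrsp, Srebf1, Fasn, Acly and Dbp are highest in f/f replicate 2 and lowest in f/f replicate 3 among f/f livers, and Scd1 is highest in MKO replicate 1.

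For the remaining enzymes the genotypes overlapped in livers. The 95% interval of the log2 fold change was -0.51 to 0.22 for Acly and -0.83 to 0.22 for Acacb. It was -0.28 to 0.69 for Elovl6 and -0.26 to 0.87 for Me1. Acly was at 110, 122 and 82.4 CPM in f/f and 103, 91.8 and 89.2 CPM in MKO livers (log2 fold change -0.15, SE 0.15). Acaca was at 51.6, 63.5 and 51.0 CPM in f/f and 56.8, 49.6 and 47.4 CPM in MKO livers (-0.11, SE 0.12), and its 95% interval of -0.40 to 0.18 was the narrowest of the members there. Acacb was at 51.1, 42.4 and 52.0 CPM in f/f and 53.6, 30.5 and 33.4 CPM in MKO livers, with MKO replicate 1 the highest and the other MKO livers the lowest (-0.31, SE 0.22). Elovl6 was at 43.4, 40.8 and 41.5 CPM in f/f livers, within 3 CPM of each other, and at 59.8, 51.9 and 33.1 CPM in MKO livers, on both sides of them (0.20, SE 0.21). Me1 was at 54.7, 68.6 and 98.9 CPM in f/f and 105, 73.0 and 97.0 CPM in MKO livers, and f/f replicate 3 lay among the MKO values (0.31, SE 0.24).

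The difference between tissues in the genotype effect was tested in a fit of all 12 libraries. In edgeR 0 of 9 members with counts in both tissues passed an adjusted p under 0.05, against 0.00580% of all genes. At an unadjusted p under 0.05 there were 2 of 9, against 14.5% of all genes. Scd1 had a log2 difference of 1.50 between the liver and BMDM effects (SE 0.66, edgeR unadjusted p = 0.0443, adjusted p = 0.333), which was 0.72 (unadjusted p = 0.151) without BMDM f/f replicate 2. Acacb had a log2 difference of -1.11 (SE 0.50, edgeR unadjusted p = 0.0480, adjusted p = 0.339), which was -0.64 without BMDM MKO replicate 2. DESeq2 called 0 members here and 801 of all genes.

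The steps around the members were read from 7 further lists. Between tissues, 13 of 15 genes that supply acetyl-CoA and citrate, 11 of 12 genes of triglyceride assembly, 7 of 8 genes of glucose and fructose entry and ChREBP targets and 7 of 8 genes of mitochondrial fatty acid synthesis were higher in f/f livers at an adjusted p under 0.05. Elongation and desaturation had 11 of 16 higher and 4 lower, the regulators 9 of 21 higher and 4 lower, and the genes that supply NADPH 4 of 9 higher and 5 lower. Of all genes tested 36.6% were higher and 32.7% lower. NADPH supply was the only list with more genes lower than higher, with a median log2 fold change of -1.03. The regulators had a median of 0.29.

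In BMDMs no list gene passed an adjusted p under 0.05 between genotypes. An unadjusted p under 0.05 was passed by 17.9% of all genes in either direction. At that threshold 2 of 9 NADPH genes were lower in MKO cultures, Pgd and G6pdx. The other 7 lay above 0 and the list median was 0.17. Pgd and G6pdx encode pentose phosphate pathway enzymes, and Pgls, Tkt and Taldo1 of the same pathway lay at 0.28, 0.16 and 0.13. Pgd was at 583, 785 and 925 CPM in f/f and 513, 463 and 479 CPM in MKO BMDMs (log2 fold change -0.66, SE 0.22), and G6pdx was at 341, 371 and 449 CPM in f/f and 281, 282 and 273 CPM in MKO BMDMs (-0.47, SE 0.17). The genotypes did not overlap for either gene, as for 28.7% of all genes, with edgeR adjusted p of 0.237 and 0.252. In triglyceride assembly, with 1 of 9 higher and 2 lower, Dgat2, which adds the last acyl chain, was at 1.46, 5.86 and 24.0 CPM in f/f and 0.470, 0.800 and 0.651 CPM in MKO BMDMs (-4.02, SE 1.03, edgeR adjusted p = 0.218). Lpin1, a phosphatidate phosphatase, was at 9.44, 9.55 and 1.54 CPM in f/f and 22.4, 25.5 and 38.2 CPM in MKO BMDMs (2.06, SE 0.64, edgeR adjusted p = 0.229). For both, f/f replicate 3 lay farthest from the MKO cultures. Acetyl-CoA and citrate supply had 2 of 15 higher and 3 lower, glucose and fructose entry 2 of 4 higher and 0 lower, and elongation and mitochondrial synthesis 0 of 12 and 0 of 8.

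In livers no list gene passed an adjusted p under 0.05 either. In livers an unadjusted p under 0.05 was passed by 10.5% of all genes in either direction. At that threshold 5 of 21 regulators were lower in MKO livers and 0 higher. The list median was -0.11 against -0.01 over all genes. For 4 of the 21 regulators the genotypes did not overlap, against 17.3% of all genes. Srebf2, whose product drives cholesterol synthesis, was at 90.5, 76.2 and 61.2 CPM in f/f and 44.6, 56.8 and 48.0 CPM in MKO livers, with no overlap (log2 fold change -0.61, SE 0.16, edgeR adjusted p = 0.334). Mid1ip1, which encodes a partner of acetyl-CoA carboxylase related to Thrsp, was at 18.8, 22.6 and 15.9 CPM in f/f and 9.75, 14.1 and 12.6 CPM in MKO livers, again with no overlap (-0.65, SE 0.18, edgeR adjusted p = 0.346). Khk, the fructokinase, lay the other way, at 136, 181 and 136 CPM in f/f and 288, 226 and 268 CPM in MKO livers (0.78, SE 0.16, edgeR adjusted p = 0.315). Fgf21, a hormone gene that fasting and ChREBP induce in liver, was at 24.97, 4.80 and 25.8 CPM in f/f and 3.88, 4.81 and 3.36 CPM in MKO livers, with f/f replicate 2 among the MKO values (-2.20, SE 0.60, edgeR adjusted p = 0.346). The counts in the other lists were 1 of 16 lower for elongation and desaturation (Elovl3), 2 of 15 higher for acetyl-CoA and citrate supply, 0 of 9 for NADPH supply, 1 of 12 lower for triglyceride assembly (Lpin2) and 2 of 8 higher for mitochondrial synthesis.

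Of 8 fasting and insulin responsive genes 0 passed an adjusted p under 0.05 between livers, and 3 were lower in MKO livers at an unadjusted p under 0.05, the threshold that 10.5% of all genes passed in either direction. Igfbp1, which insulin represses, was at 257, 255 and 252 CPM in f/f and 119, 42.1 and 97.8 CPM in MKO livers (log2 fold change -1.56, SE 0.35, edgeR adjusted p = 0.334). Of 14 clock genes 2 were higher and 2 lower in MKO livers, and 4 were higher and 1 lower in MKO BMDMs, at the same threshold, which 17.9% of all genes passed in BMDMs. Their part in the members' values was not tested. Adipocyte markers summed to 27.4 to 48.0 CPM in f/f and 29.8 to 50.3 CPM in MKO livers, with Lep and Retn at 0 in every liver library and Adipoq at 0.143 CPM at most. Macrophage markers summed to 128 to 336 CPM in f/f and 139 to 313 CPM in MKO livers, so neither sum set the genotypes apart. Of the 8 macrophage markers 7 lay below 0 in MKO livers, with a median log2 fold change of -0.27. Of 5 resident liver macrophage markers 4 lay below 0, with a median of -0.18. In both lists 0 passed an unadjusted p under 0.05. All 7 neutrophil markers tested lay below 0 in MKO livers, with 2 at an unadjusted p under 0.05 and a median log2 fold change of -2.07. Their sum was 108 CPM in f/f replicate 1 against 8.89 to 32.2 CPM in the other livers, and in that library the stellate cell and fibroblast markers summed to 29.6 CPM against 93.6 to 243 CPM. Without f/f replicate 1 the count of members called in livers was 0, as with it. Adipocyte markers summed to 31.5 to 120 CPM in f/f and 143 to 216 CPM in MKO BMDMs, carried by Fabp4 and Pparg, while Lep, Cfd, Plin1 and Cidec were at 0 there. The sum of the macrophage markers also did not overlap between the BMDM genotypes, and Lyz2, the gene that drives the Cre, carried it. Lyz2 was at 8871, 9844 and 8773 CPM in f/f and 16149, 14537 and 22320 CPM in MKO cultures. In livers Lyz2 was at 27.7, 59.9 and 44.7 CPM in f/f and 1.56, 106 and 43.7 CPM in MKO libraries. Of the 8 macrophage markers, 2 lay fully higher in MKO cultures and 2 fully lower, where 28.7% of all genes did not overlap. The part of these differences in the BMDM values was not tested.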

How the data were processed

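The authors deposited raw counts per gene for 12 strand-specific libraries. Reads were trimmed with Skewer, and the submitters' processing notes name FastQC 0.11.2, STAR, StringTie and mm10. Whether counting used strand is not given in the sources used here. Columns were matched to samples by the labels' sample IDs. Genes passing filterByExpr (minimum count 10) were tested in R 4.3.3 with edgeR 4.0.16 (robust quasi-likelihood, TMM factors), within each tissue for the genotype and in a fit of 4 groups for tissue and interaction. Calls needed a Benjamini-Hochberg adjusted p under 0.05. The DEGseq model of the study uses no spread between replicates and was replaced. The script was tested on simulated data. Members and lists were chosen with earlier results of these data known. All 10 members are named, and from each list up to 4 genes with the lowest unadjusted p under 0.05 in a comparison could be named. Alternatives were RLE, upper-quartile and no factors, other filters, DESeq2 1.42.0, a replicate block, summed rows of a symbol, other sample sets, the letter of the sample ID, and leaving out each library. Exon lengths came from GENCODE M21 on GRCm38, the build of mm10. Exons of an opposite-strand gene cover 0.529% of the Elovl6, 0.780% of the Me1, 1.94% of the Srebf1 and 4.24% of the Mlxipl exon length. Figures were drawn with matplotlib 3.10.9.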

Additional observations from a re-analysis of the deposited data

How the results depend on the processing

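The count of members called stayed at 0 for the genotype in BMDMs, in livers and for its difference between tissues under every alternative run, and between 8 and 9 for tissue. For single members most directions held: 127 values in BMDMs, 153 in livers, 128 for tissue and 166 for the difference between tissues kept direction and side of the threshold, and 6, 7, 7 and 14 did not. The cause was not tested. In BMDMs Fasn was at 0.037 with upper-quartile factors and 0.13 with library totals alone, where the median of all genes was 0.17, and ran from -0.074 to 0.031 when a library was left out. Acaca ran from -0.18 to 0.25 and Scd1 from -1.07 to 0.022. In livers Srebf1 was at 0.000295 with library totals alone and 0.23 with the ID letter as covariate, and ran from -0.30 to 0.45 when a library was left out, and Thrsp ran from -0.22 to 2.43. Between tissues Acly ran from -0.23 to 0.041, and Srebf1 was at -0.11 with library totals alone, with a range of 0.20 to 0.95. Under library totals alone Acaca was at 0.48 and Acly at -0.94, as given above. Srebf1 passed the test with DESeq2 (0.66, adjusted p = 0.0466) and with a mean of at least 50 counts (0.73, edgeR adjusted p = 0.0417). For the difference between tissues Acaca ran from -0.35 to 0.060, and Elovl6 from -0.18 to 0.23, with -0.013 by RLE, -0.048 by upper-quartile factors, -0.11 by library totals alone, -0.020 with no filter and -0.012 by DESeq2.

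The replicate numbers did not pair the samples: deviations of same-numbered libraries correlated at 0.152, 0.0357 and 0.118 in BMDMs and at -0.0755, 0.254 and -0.0331 in livers. With a replicate block, 0 members were called in BMDMs, 0 in livers, 8 between tissues and 0 for the difference between tissues. Liver Srebf1 was then at 0.10 and the Elovl6 difference between tissues at -0.054. Over all genes, adjusted calls by genotype numbered 0 in either tissue with edgeR as reported, and 1216 (BMDMs) and 266 (livers) with DESeq2. In BMDMs edgeR called 150 in the fit of all 12 libraries, 1 with the replicate block, 13 without f/f replicate 2 and 2 without f/f replicate 3. In livers it called 1 with no filter, 7 without f/f replicate 2 and 2 without MKO replicate 3, and 0 under its other settings.

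With 3 libraries per group, intervals were wide where libraries spread. Low members in BMDMs (Acacb, Mlxipl) rest on few counts.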
